A study of Mus musculus with 18 samples.

Results

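The E2F and retinoblastoma family was measured in mouse CD4+ T cells sorted by the state of their Foxp3 transcription. The members were the 10 genes E2f1 to E2f8, Rb1 and Rbl1, chosen by gene symbol. All 10 were present among the 15402 genes of the deposited table, and all 10 were among the 13190 genes that were tested, those whose log2 values averaged 3 or more.

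E2F proteins are transcription factors that switch on the genes of DNA replication and mitosis. In resting cells the pocket proteins, encoded by Rb1, Rbl1 and Rbl2, bind E2F proteins and hold these genes silent. When cyclin-dependent kinases phosphorylate the pocket proteins the activating E2Fs are released, and the cell enters S phase, as a lymphocyte does after antigen stimulation. The atypical members E2f7 and E2f8, which bind DNA without a DP partner, are themselves made late in this sequence and shut E2F genes down again.

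RNA was sequenced from 6 sorted populations, with 3 libraries each and 18 libraries in all, and pools of 3 mice were used for each replicate. All mice were female, of the strain C57/BL6 Foxp3Timer Foxp3-IRES-GFP, and none was left unsensitised: 3% oxazolone was put on the abdominal skin of every mouse, and draining lymph nodes were taken 5 days later. In this strain (Foxp3-Tocky) a transgene driven by Foxp3 regulatory sequence makes a fluorescent Timer protein, whose short-lived blue form reports recent transcription and matures into a long-lived red form. Tnaive (CD44lo) and Teff (CD44hi) cells lacked Timer, whereas the Timer+ cells were sorted by both colours. Pers1 was Blue-intermediate and Red-low, Pers2 was high in both, PAt was Red-high with low Blue, and Arrested had intermediate Red and no Blue. Pers1 and Pers2 stand for persistent Foxp3 transcription and Arrested cells for transcription that has stopped. GEO's sample labels name the same sorts differently, with Pers2 called maturing Foxp3 expressers.

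The values were log2 normalised read counts, so a difference of 1 is a change of 2-fold, and the read depth behind them is unknown. The summed level of 6 T cell markers was between 16.52 and 17.06 (log2 of the sum) in every library. The sum of 4 regulatory T cell markers was 15.98 to 16.98 in Timer+ libraries, 13.85 to 14.22 in Teff and 11.79 to 11.88 in Tnaive. Markers of other cells were higher in the Teff libraries, although these cells were sorted as CD4+. The summed level of 7 macrophage, monocyte and dendritic cell markers was 12.02 to 12.45 in Teff and 9.18 to 10.06 elsewhere, and Siglech, a marker of plasmacytoid dendritic cells, had a mean of 10.62 in Teff against 3.58 to 4.30 in the other populations. The sum of 4 CD8+ T and NK cell markers was 11.64 to 12.09 in Teff against 9.79 to 10.74 elsewhere. For 5 B cell markers the sum was 11.48 to 12.15 in Teff, 11.22 to 11.83 in PAt and Arrested, 10.47 to 10.74 in Pers1 and Pers2 and 9.48 to 9.90 in Tnaive, so that B cell markers were higher in the groups where most E2F genes were lower within Timer+ cells. Their part in the results was not tested. As these are bulk samples, fewer cells of a type and less RNA per cell cannot be told apart.

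The promoters of the 4 members that held an E2F motif, and that of E2f8, are shown because the family is known to act on its own genes. A promoter was a window from 250 bases before to 50 bases after a RefSeq start on GRCm38.p6, and 7 of the 10 members had an entry, E2f2 and E2f3 with 2 windows each. E2f4, E2f5 and Rb1 had no entry. The E2F motifs searched were TTTCGCGC, TTTGGCGC, TTTCCCGC and TTTGCCGC, the cell cycle homology region (CHR) bound by the DREAM complex was TTTGAA, and the NF-Y site was CCAAT. Both strands were read, and capitals mark the matches, so that CCAAT on the other strand reads ATTGG. The E2f7 sequence holds the 250 bases before the start, at chr10:110745189-110745438 on the plus strand. The E2f8 sequence holds 150 bases at chr7:48881597-48881746 on the minus strand. Those of E2f3 (chr13:29986064-29986153) and Rbl1 (chr2:157204535-157204624), also on the minus strand, hold 90 bases up to the start, and that of E2f2 (chr4:136172294-136172323, plus strand) holds 30 bases after it.
E2f7: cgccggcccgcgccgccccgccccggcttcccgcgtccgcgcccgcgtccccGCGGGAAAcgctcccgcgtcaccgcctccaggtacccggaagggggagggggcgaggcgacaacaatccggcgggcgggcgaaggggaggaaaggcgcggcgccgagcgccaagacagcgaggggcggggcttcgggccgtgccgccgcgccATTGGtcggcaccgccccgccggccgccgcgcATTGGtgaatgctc
E2f8: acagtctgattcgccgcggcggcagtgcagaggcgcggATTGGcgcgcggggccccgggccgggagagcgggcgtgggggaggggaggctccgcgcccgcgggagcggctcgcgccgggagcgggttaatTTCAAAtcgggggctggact
E2f3: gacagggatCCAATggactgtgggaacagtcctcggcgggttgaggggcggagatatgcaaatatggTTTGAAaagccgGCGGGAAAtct
Rbl1: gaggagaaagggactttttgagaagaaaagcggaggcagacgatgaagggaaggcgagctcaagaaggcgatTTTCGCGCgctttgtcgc
E2f2: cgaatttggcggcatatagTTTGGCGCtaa

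Counted from the start, the first base of the E2F motif was at -198 in E2f7, -18 in Rbl1, -11 in E2f3 and 40 in E2f2. E2f8 had none of the E2F strings searched in its window but had a CHR at -20. Looser forms of the E2F motif were not searched. E2f3 had a CHR as well, at -23, and so had the second E2f2 window (chr4:136180532-136180831), at -31, which held CCAAT 3 times and no E2F motif. The second E2f3 window (chr13:29984342-29984641) held none of the motifs. None of the 3 motifs was in the windows of E2f1 and E2f6. The E2f1 window (chr2:154569377-154569676, minus strand) lies inside the GENCODE gene, whose 5' end is at 154569892. The bases before that end were therefore not searched for E2f1. The first E2f2 window (chr4:136172024-136172323) ends before the GENCODE start of E2f2 at 136172394. Its E2F motif, which follows the RefSeq start, thus lies before the GENCODE start. Among all 11408 genes of the expression table with a promoter entry, 4.33% held an E2F motif, 14.7% a CHR and 42.3% CCAAT. Over all 32851 windows of the reference these shares were 2.26%, 17.9% and 37.4%. A match describes the letters only.

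The activators E2f1, E2f2 and E2f3 drive entry into S phase. E2f1, which is also known to promote apoptosis, had log2 values of 9.63, 9.60 and 9.55 in Pers1 and of 10.06, 9.90 and 9.79 in Pers2. In PAt the values were 7.95, 7.79 and 7.70, and in Arrested they were 7.87, 7.16 and 7.38. Teff gave 8.66, 8.48 and 8.58, and Tnaive 7.67, 7.61 and 7.38. The 6 persistent libraries were thus the highest, the 3 Teff libraries lay between, and PAt, Arrested and Tnaive lay at the bottom. There every PAt library was above every Tnaive library, and the Arrested libraries overlapped both. In the order of population means, Pers2 and Pers1 did not differ beyond their spread (0.32, SE 0.14, adjusted p = 0.146), nor did PAt and Tnaive (adjusted p = 0.133) or Tnaive and Arrested (adjusted p = 0.649), whereas Pers1 stood above Teff and Teff above PAt.

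E2f2, known in T cells for its role in setting the threshold of proliferation, was ordered differently. Its values were 12.74, 12.78 and 12.73 in Pers1 and 12.80, 12.72 and 12.68 in Pers2. PAt gave 12.18, 12.14 and 11.96, and Arrested 12.07, 11.85 and 11.77. Teff, with 11.79, 11.69 and 11.79, overlapped the Arrested libraries, and Tnaive was lowest at 10.89, 10.74 and 10.76. Unlike E2f1, E2f2 was therefore well above Tnaive in each Timer+ library. E2f3 had means of 10.04 ± 0.04 (SD, n = 3, as for all means here) in Pers2 and 9.86 ± 0.05 in Pers1. Teff followed at 9.53 ± 0.11, then PAt at 9.26 ± 0.06, Arrested at 8.82 ± 0.10 and Tnaive at 8.15 ± 0.15. It was the member with the most steps, since each population in this order differed from the next (adjusted p of 0.0135 or less) except Pers2 from Pers1 (adjusted p = 0.211).

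Of the members that act as repressors, E2f4 and E2f5 pair with the pocket proteins in resting cells, and E2f6 works without them in a Polycomb complex. E2f4 moved little, from 11.73 ± 0.03 in Tnaive, 11.74 ± 0.16 in PAt and 11.74 ± 0.13 in Arrested to 12.01 ± 0.09 in Pers2, 12.06 ± 0.01 in Teff and 12.22 ± 0.09 in Pers1. E2f6 ran from 9.09 ± 0.07 in Arrested to 9.63 ± 0.12 in Pers2, and no population differed from the next in order (adjusted p of 0.0677 or more). E2f5 was the single member with its lowest means in the persistent cells, 7.98 ± 0.07 in Pers1 and 8.21 ± 0.17 in Pers2. PAt had a mean of 8.66 ± 0.14 and Tnaive of 8.65 ± 0.10. Its Teff value of 8.40 ± 0.39 rested on 1 high library, replicate 2 at 8.84, with the other Teff libraries at 8.15 and 8.19.

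The atypical repressors had the widest range. E2f8 was at 10.82, 10.71 and 10.61 in Pers1 and at 10.92, 10.76 and 10.76 in Pers2. Teff gave 8.83, 8.51 and 8.87, PAt 7.80, 7.72 and 7.66 and Arrested 7.63, 7.24 and 7.27, and Tnaive was at 5.61, 5.39 and 5.47. These formed 4 separate levels, with no overlap between the persistent libraries, Teff, the PAt and Arrested libraries and Tnaive. E2f7 had values of 9.19, 9.05 and 9.19 in Pers1 and of 9.38, 9.09 and 9.16 in Pers2. The Teff values of 6.77, 7.03 and 7.08 overlapped those of PAt (6.90, 7.05 and 6.22) and lay above those of Arrested (6.70, 6.45 and 6.25). Tnaive was lowest at 5.10, 5.34 and 5.24. E2f7 and E2f8 thus had the same order of population means. The step from Teff to PAt was 1.01 for E2f8 (SE 0.12, adjusted p = 3.3e-07) and 0.23 for E2f7 (SE 0.17, adjusted p = 0.265), and the difference of these steps was not tested.

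The RNA of the pocket protein genes varied least, along with that of E2f4 and E2f6. Rb1, which encodes the retinoblastoma protein, had means of 12.07 ± 0.09 in Pers2, 12.03 ± 0.03 in Pers1, 11.94 ± 0.16 in PAt and 11.88 ± 0.20 in Arrested. These neighbours did not differ beyond their spread. Teff at 11.57 ± 0.05 and Tnaive at 11.45 ± 0.06 were lower, with a step of 0.31 between Arrested and Teff (SE 0.08, adjusted p = 0.00408). The step in Rb1 thus lay between Timer+ and Timer-negative cells. Rbl1, which encodes p107 and is itself a known E2F target, was highest in Pers2 at 12.004 ± 0.05 and next in Pers1 at 11.73 ± 0.04, whereas PAt, Arrested, Teff and Tnaive had means between 11.39 and 11.48. Arrested replicate 1 and replicate 2 were at 11.31 and 11.32 and replicate 3 at 11.68. Rb1 shares 488 exonic bases with Rcbtb2 and 408 with Lpar6 on the other strand, and E2f8 shares 610 with Gm2788. E2f7 shares 86 with 1700020G17Rik and E2f5 26 with 1810022K09Rik, and Rbl2, named further on, shares 693 with Aktip and 892 with Gm45464. Whether reads were counted by strand is not given in the sources used here, so reads of these pairs may not be separated.

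The distance between the highest and the lowest population mean was 5.32 for E2f8, 3.98 for E2f7, 2.45 for E2f1, 1.95 for E2f2 and 1.89 for E2f3, on the log2 scale. For the remaining members it was 0.48 (E2f4) to 0.68 (E2f5), and the median over all tested genes was 0.58. On the scale of log2 normalised count per kilobase of exon, E2f4 was the most abundant E2F in every population (10.44 to 10.92), followed by E2f2 (8.51 in Tnaive to 10.46 in Pers1). E2f8 went from 3.05 in Tnaive to 8.37 in Pers2, and E2f7 from 2.06 to 6.04. E2f7 and E2f8, which varied most between populations, were thus the least abundant members in Tnaive. The deposited values have the form of a transform that draws low values together.

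**Figure D1:**
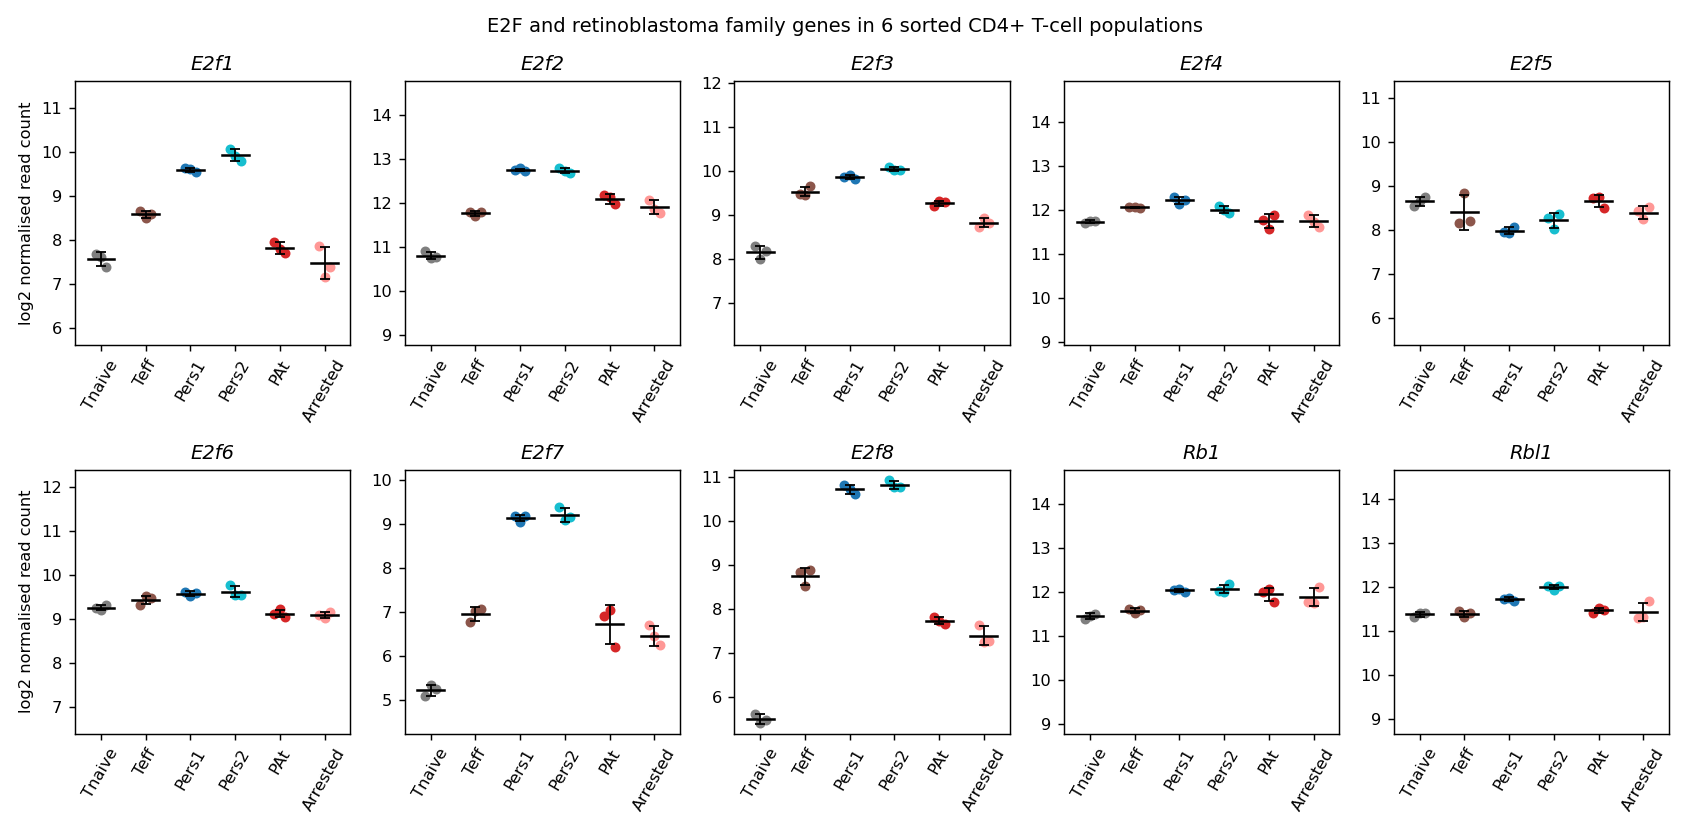
Log2 normalised read count (y axis, each panel spanning 6 units) of the 10 genes in each library by population (x axis). Points are the 3 libraries of a population, horizontal lines their mean and bars the SD. E2f7 and E2f8 had their highest values in Pers1 and Pers2 and their lowest in Tnaive, and E2f4, E2f5, E2f6, Rb1 and Rbl1 stayed within a narrow range.

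The first comparison set the persistent expressors against PAt and Arrested cells, that is, intermediate or high Blue against low or no Blue among Timer+ cells. It does not set Foxp3 transcription against none, as PAt cells keep low Blue. Foxp3 RNA was 1.18-fold higher in Pers1 and Pers2 (log2 0.24, SE 0.05), with overlapping libraries. Mki67, of the mitotic list below, was 7.36-fold higher (log2 2.88, SE 0.05). A gene was called when its adjusted p was under 0.05 and its absolute log2 fold change was over 1. E2f8, E2f7 and E2f1 rose in Pers1 and Pers2, which made 3 of 10 members called higher, against 4.74% of all tested genes. No member was called lower, against 2.77% of all genes. E2f8 was 9.26-fold higher (log2 3.21, SE 0.08, adjusted p = 7.8e-18). E2f7 was 5.99-fold higher (log2 2.58, SE 0.12, adjusted p = 5.7e-14), and E2f1 was 4.33-fold higher (log2 2.12, SE 0.10, adjusted p = 5.3e-14). The called members were 1 activator and both atypical repressors.

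The other members differed by less than the fold threshold. E2f3 (log2 0.91) and E2f2 (log2 0.74) came nearest to it, E2f6 was at 0.49, Rbl1 at 0.41, E2f4 at 0.37 and Rb1 at 0.14, and E2f5 was at -0.43 (SE 0.10, adjusted p = 9.5e-04). With the adjusted p alone 10 of 10 members passed, but so did 70.9% of all genes. In 7 members, E2f1, E2f2, E2f3, E2f4, E2f6, E2f7 and E2f8, every persistent library was above every PAt and Arrested library, against 24.0% of all genes. The libraries of E2f5, Rb1 and Rbl1 overlapped. The median log2 fold change was 0.62 over the 10 members and -0.01 over all tested genes.

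Between Pers2 and Pers1 0 of 10 members were called, against 0.190% of all genes. At an unadjusted p under 0.05 limma gave 3 members, and 3160 of all genes. Rbl1 was the single member with an adjusted p under 0.05, among 10.6% of all genes. It was higher in Pers2 by 0.28 (SE 0.07, adjusted p = 0.021). Between Arrested and PAt limma also called 0 of 10 members, against 0.121% of all genes, and 4 members and 2384 genes had an unadjusted p under 0.05. E2f3 was lower in Arrested, at -0.44 (SE 0.09, adjusted p = 0.0039), where 5.04% of all genes had an adjusted p under 0.05. E2f8 was at -0.35 (SE 0.12, adjusted p = 0.0993) and E2f1 at -0.34 (SE 0.14, adjusted p = 0.176).

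**Figure D2:**
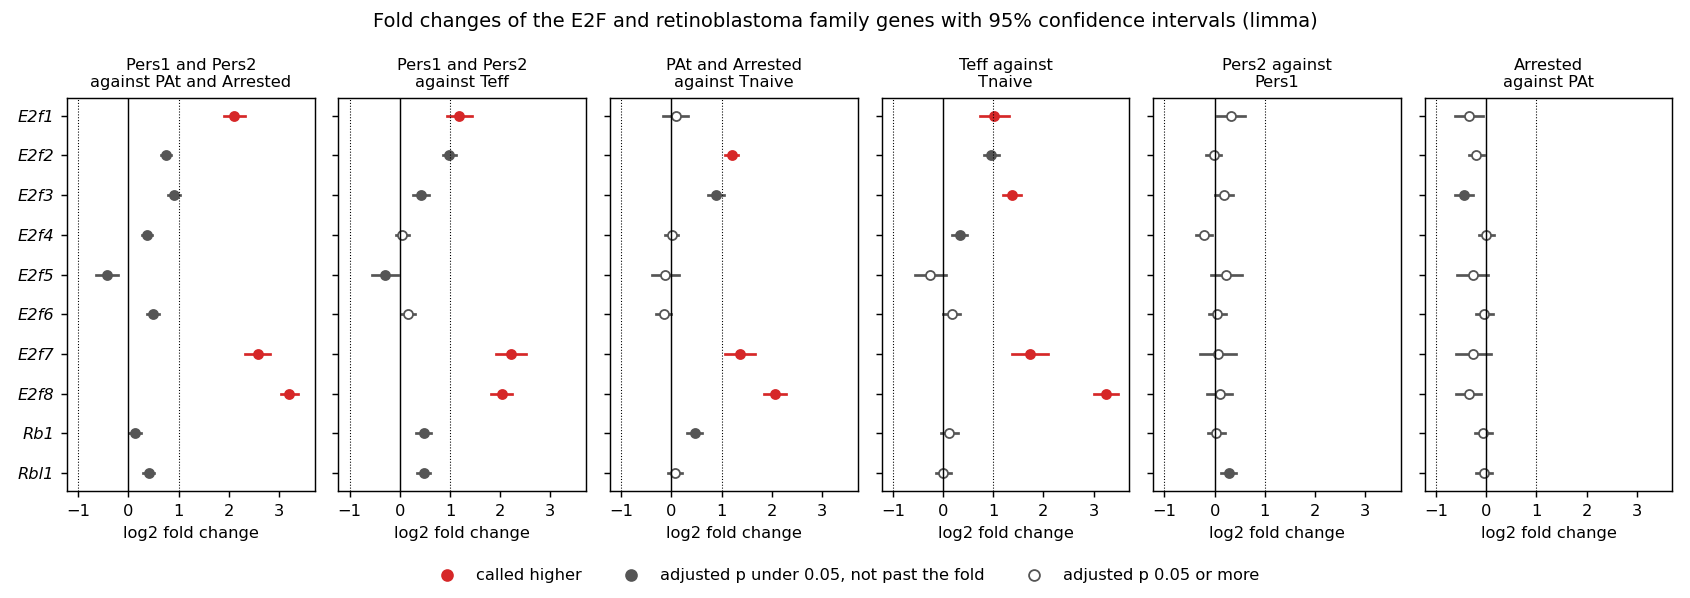
Log2 fold change (x axis) of each gene (y axis) in 6 comparisons from limma. Points are estimates and lines 95% confidence intervals, dotted lines mark the fold threshold, red marks genes called higher, filled grey points genes with an adjusted p under 0.05 that did not pass the threshold, and open points the remaining genes. E2f1, E2f7 and E2f8 were called in Pers1 and Pers2 against PAt and Arrested and against Teff, and none in the comparisons within a pair.

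Timer+ cells were then set against the Timer-negative populations. These comparisons share the Teff or Tnaive libraries and are given side by side. Teff were sorted as CD44hi cells without Timer, which does not establish their lineage. Against Teff, E2f7 (log2 2.22, SE 0.15), E2f8 (log2 2.03, SE 0.10) and E2f1 (log2 1.18, SE 0.12) were higher in Pers1 and Pers2. These were 3 of 10 members against 4.28% of all genes. E2f2 at 0.98 (SE 0.06, adjusted p = 1.2e-11) lay just under the fold threshold, and Rb1 at 0.48, Rbl1 at 0.47 and E2f3 at 0.42 well under it. E2f5 was at -0.30 (SE 0.13, adjusted p = 0.0493), and at -0.073 without Teff replicate 2 (adjusted p = 0.601). With E2f5, 8 members had an adjusted p under 0.05, as did 58.7% of all genes. E2f4 at 0.05 (SE 0.06, adjusted p = 0.54) and E2f6 at 0.16 (SE 0.07, adjusted p = 0.0551) did not pass. In the same comparison 6 of 7 macrophage, monocyte and dendritic cell markers, 4 of 4 CD8+ T and NK cell markers and 4 of 5 B cell markers were lower in Pers1 and Pers2 than in Teff. Their part in the result was not tested.

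Against Tnaive, E2f8 was 38.7-fold higher in Pers1 and Pers2 (log2 5.27, SE 0.10, adjusted p = 1.0e-20) and E2f7 15.4-fold (log2 3.95, SE 0.15). E2f1 at 2.20, E2f2 at 1.94 and E2f3 at 1.799 were also called, which made 5 of 10 members against 10.6% of all genes. At the adjusted p alone it was 10 of 10 members and 74.0% of all genes, with E2f5 again the single one lower, at -0.55 (SE 0.13, adjusted p = 5.5e-04). Shifting the libraries to one median lowered the median of all genes in this comparison by 0.14, and quantile normalisation lowered it by 0.11. All 5 calls were made under both.

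PAt and Arrested cells were set against the same populations. Against Tnaive E2f8 (log2 2.06, SE 0.10), E2f7 (log2 1.37, SE 0.15) and E2f2 (log2 1.20, SE 0.06) were higher, 3 of 10 members against 6.63% of all genes. E2f3 at 0.89 and Rb1 at 0.46 had an adjusted p under 0.05 without the fold, so that 5 members passed on the adjusted p, as did 50.7% of all genes. E2f1 was at 0.09 (SE 0.12, adjusted p = 0.575) and turned to -0.21 under quantile normalisation, with neither value past the threshold. Against Teff E2f8 was lower in PAt and Arrested (log2 -1.18, SE 0.10, adjusted p = 2.8e-09), 1 of 10 members against 4.04% of all genes. E2f1 was at -0.94 (SE 0.12, adjusted p = 9.9e-07) and was called only when Arrested replicate 1, its highest Arrested library, was left out, at -1.04. That fit made it 2 members called. With the adjusted p alone 8 members passed, against 52.7% of all genes, among them E2f3 at -0.49, E2f6 at -0.33 and E2f4 at -0.32 and, in the other direction, Rb1 at 0.34 and E2f2 at 0.24.

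Teff against Tnaive gives the shift of the family with activation outside Foxp3 expressors. E2f8 was 9.47-fold higher in Teff (log2 3.24, SE 0.12, adjusted p = 1.3e-15), E2f7 was at log2 1.73 (SE 0.17), E2f3 at 1.38 (SE 0.09) and E2f1 at 1.02 (SE 0.14). These were 4 of 10 members against 8.88% of all genes, and 6 members passed on the adjusted p alone against 59.0% of all genes. The E2f1 call did not hold. It was 0.94 with the libraries shifted to one median, 0.72 under quantile normalisation, 0.93 to 1.08 when 1 library was left out, and not called without Tnaive replicate 3 or without Teff replicate 1. E2f2 was just under the threshold at 0.96 and was called without Tnaive replicate 1, at 1.01. Quantile normalisation lowered the median of all genes by 0.10 here. In Teff, 5 of 7 macrophage, monocyte and dendritic cell markers, 5 of 5 B cell markers and 3 of 4 CD8+ T and NK cell markers were higher than in Tnaive, and their part in these values was not tested.

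Both shifts could be compared directly, since they share no library. The difference, persistent minus PAt and Arrested less Teff minus Tnaive, was called for E2f1, at 1.09 (SE 0.17, adjusted p = 1.5e-05). E2f1 thus differed more within Timer+ cells (log2 2.12) than between the Timer-negative populations (log2 1.02). That made 1 of 10 members called higher, against 1.52% of all genes, and none lower, against 6.90%. E2f7 at 0.85 (SE 0.21, adjusted p = 0.00179), Rbl1 at 0.40 (SE 0.09, adjusted p = 0.00104) and E2f6 at 0.31 (SE 0.10, adjusted p = 0.0126) differed in the same direction without passing the fold. E2f3 at -0.47 (SE 0.11, adjusted p = 9.5e-04) and E2f2 at -0.22 (SE 0.09, adjusted p = 0.0438) differed in the other direction, their shift being larger between Teff and Tnaive. A total of 6 members passed on the adjusted p, and 48.7% of all genes did. E2f8 shifted by 3.21 and 3.24, a difference of -0.03 (SE 0.14, adjusted p = 0.865) that became 0.30 under quantile normalisation, where E2f7 was also called, at 1.25. The markers of other cells named above are part of the Teff side of this difference, and their part was not tested.

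**Figure D3:**
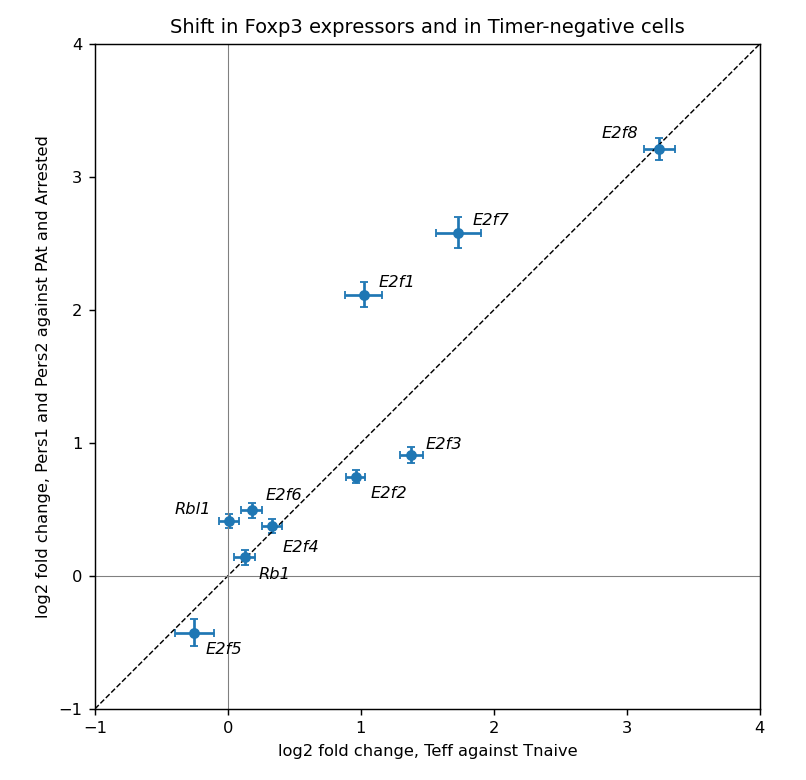
Log2 fold change between Teff and Tnaive (x axis) and that of Pers1 and Pers2 against PAt and Arrested (y axis) for the 10 genes, with bars of 1 standard error from limma. The dashed line marks equal shifts. E2f1 and E2f7 lie above it, E2f2 and E2f3 below it, and E2f8 on it.

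The genes that work with the family were described from lists, by their counts in Pers1 and Pers2 against PAt and Arrested and beside the 4.74% of all genes called higher. E2F proteins bind DNA with a DP partner. Tfdp1 was higher (log2 1.30, SE 0.05, adjusted p = 7.1e-16), and Tfdp2 was at -0.13 (SE 0.05, adjusted p = 0.0376). The DREAM complex joins E2f4 and pocket proteins to the MuvB core, and this core is rebuilt with Mybl2 and Foxm1 for mitotic genes. Of 8 genes of the core and its partners, 2 were called higher. These were Foxm1 at 2.36 (SE 0.07) and Mybl2 at 2.06 (SE 0.08), and the shared core was flatter, with Rbbp4 at 0.64, Lin54 at 0.50, Lin9 at 0.27, Lin52 at 0.14 and Lin37 at -0.08. The third pocket protein gene, Rbl2, was at 0.39, and neither it nor any core gene was called. The difference of the shifts was 1.20 for Mybl2 (SE 0.14, adjusted p = 5.6e-07), called as for E2f1, and 0.28 for Foxm1 (SE 0.13, adjusted p = 0.0753).

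Of the 13 tested of 15 cyclins, kinases and inhibitors that act on pocket proteins, 4 were higher. They were Cdkn2c, which encodes the p18 inhibitor of Cdk4 and Cdk6 (1.94), Ccne1 (1.55) and Ccne2 (1.34), which encode cyclin E, and Cdkn1a, which encodes p21 (1.41). The lowest were Cdkn1b, which encodes p27, at -0.36, Cdkn2d at -0.20 and Ccnd1 at -0.13. Ccnd1, encoding cyclin D1, was called in the difference of the shifts, at -2.95 (SE 0.16, adjusted p = 3.4e-12), and was higher in Teff than in Tnaive by 2.82. Against Teff it was at -2.94 in Pers1 and Pers2 and at -2.80 in PAt and Arrested. Against Tnaive these were at -0.12 and 0.02, so that Ccnd1 was high in Teff alone. Markers of other cells were higher in Teff too, and their part in the Ccnd1 values was not tested. Cdkn2a and Cdkn2b were too low to be tested. Among 5 genes of the ubiquitin ligases that remove E2Fs and cyclins, Ccnf (2.43), Cdc20 (2.26) and Fbxo5 (1.35), an E2F target that holds the anaphase-promoting complex back, were higher, and Skp2 at 0.85 and Fzr1 at 0.71 did not pass the fold.

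In the Polycomb complex of E2f6, 0 of 8 genes were called by limma, and 7 had an unadjusted p under 0.05, as did 72.9% of all genes. Cbx3 was at 0.74 and the 7 others below 0, with Rnf2 at -0.08, Max at -0.16, L3mbtl2 at -0.21, Ring1 at -0.23, Rybp at -0.35, Pcgf6 at -0.52 and Mga at -0.84. Its median of -0.22 was the only list median under that of all genes, among the 9 lists. Of 4 genes known to be silenced by E2f6, 2 were tested, Stag3 at 0.43 (SE 0.10, adjusted p = 5.4e-04) and Tubb3 at 0.10 (SE 0.06, adjusted p = 0.148).

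Genes known to be under the control of E2F or of the DREAM complex were taken as 2 lists. Of 30 genes of DNA replication and S phase entry, 26 were higher and the median was 1.60. The highest were Rrm2, a subunit of ribonucleotide reductase, at 3.29, and the replication licensing genes Cdc6 at 2.94 and Mcm10 at 2.88, and Tyms at 0.18 and Cdt1 at 0.79 were among the lowest. Of 20 mitotic genes, 20 were higher with a median of 2.79, from Kif20a at 1.44, Kif23 at 2.19 and Cdc25c at 2.25 to Ube2c at 2.97, Cdk1 at 3.02 and Ccnb1 at 3.10. The replication genes ran from 0.139 to 3.29. This wide range held E2f8, E2f7 and E2f1 and also the smaller shifts of E2f2, E2f3, E2f4, E2f6 and Rbl1. E2f7 and E2f1 lay within the range of the mitotic genes as well. In the difference of the shifts 9 genes of the replication list were called higher and 1 lower, and of the mitotic list 1 higher and 1 lower, beside 1.52% of all genes higher and 6.90% lower. The 7 genes through which E2f1 promotes apoptosis had a median of 0.59, with 2 called higher and 6 above 0, and Bbc3, encoding PUMA, was lowest at -0.88 (SE 0.12, adjusted p = 1.1e-06). Ccne1, Ccne2 and Cdc20 are in more than 1 of these lists.

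Both target lists differed in their promoters. An E2F motif was in 12 of 24 matched replication genes and in 6.25% of 16 matched mitotic genes, against 4.33% of the genes of the table. A CHR was in 8.33% and 68.8%, against 14.7%, and CCAAT in 75.0% and 87.5%, against 42.3%. The E2f7 and Rbl1 windows, with an E2F motif and no CHR, had the letters more frequent in the replication genes, and E2f8, with a CHR, those more frequent in the mitotic genes. E2f2 had the first kind in one window and the second kind in the other, and E2f3 had both kinds in the same window.

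**Figure D4:**
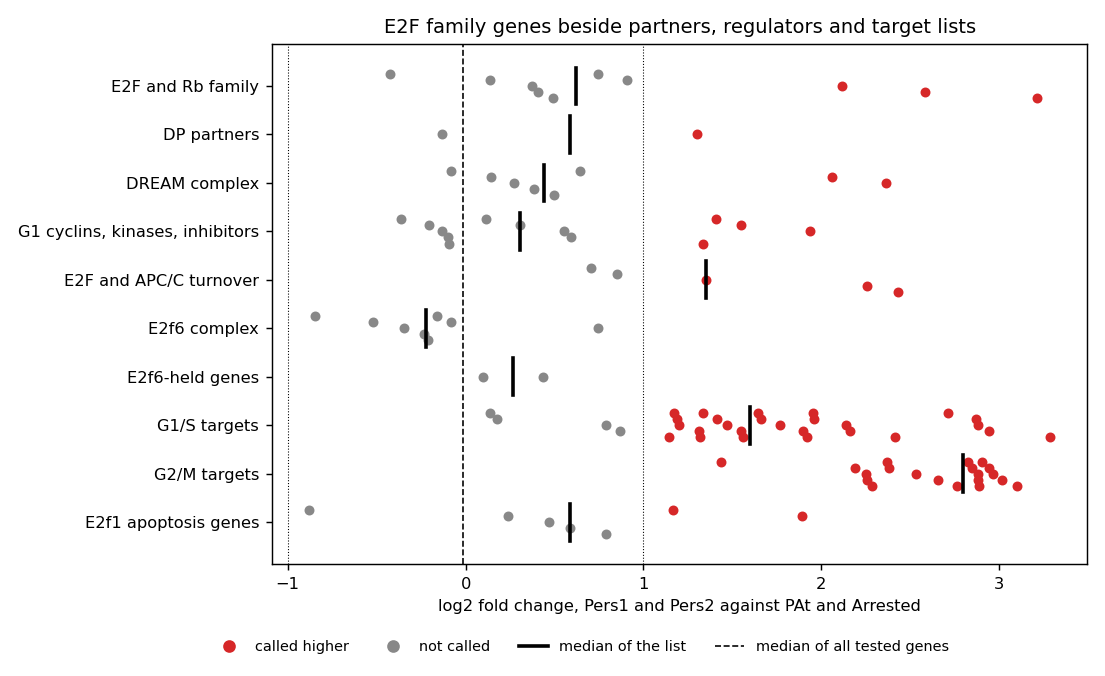
Log2 fold change in Pers1 and Pers2 against PAt and Arrested (x axis) of each tested gene of the family and of 9 lists of related genes (y axis). Red points were called higher, grey points were not called, bars are the list medians, the dashed line is the median of all tested genes and dotted lines mark the fold threshold. The medians were 1.60 for G1/S targets, 2.79 for G2/M targets and -0.22 for the E2f6 complex.

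For each member the tested genes outside the family with the most similar values over the 18 libraries were found by Pearson correlation. These are descriptions, as the points share 6 populations. E2f8 was closest to Chaf1a, a histone chaperone subunit of DNA replication (r = 0.998), to 2810417H13Rik and to Racgap1, which acts in cytokinesis. E2f7 was closest to Lig1, the replicative DNA ligase (r = 0.993), Mcm6 and Ncapg2. For E2f1 the nearest were its own partner Tfdp1 (r = 0.987), Tcf19 and Mms22l, and for E2f2 they were Tk1, thymidine kinase (r = 0.991), Capg and C1qtnf6. E2f3 was nearest to Arnt2 (r = 0.981), F2r and Gpr55, none of them a gene of the lists above. The nearest genes of E2f4 were Dpp3 (r = 0.952), Sec13 and Myl6, of E2f6 Snapc5 (r = 0.954), H3f3a and Chp1, of Rb1 Itgav (r = 0.952), Trim59 and Gbp3, and of Rbl1 Arl5a (r = 0.944), Crybg3 and Dnajc9. E2f5 had the least similar neighbours, Zfp606 (r = 0.893), Usp8 and Rabgap1.

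Within the family the highest correlation was that of E2f7 with E2f8 (r = 0.98, 18 libraries), followed by E2f3 with E2f8 (0.97). E2f5 ran against each of the others, with r from -0.72 (E2f8) to -0.39 (Rb1). Rb1 was most like E2f2 (0.84), and its r with E2f4 was 0.17.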

How the data were processed

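RNA-seq was run on 18 libraries of sorted CD4+ T cells, 3 for each of 6 populations. The labels and methods give a TruSeq Stranded mRNA kit and paired-end reads of 100 bp aligned to mm10. The submitters' processing notes name CASAVA 1.8.2, FastQC 0.11.2, TopHat2 2.0.9 and DESeq2, and the read counter and its strand setting are not given in the sources used here. The values deposited by the authors are log2 normalised counts of 15402 genes (from -0.02 to 18.89, 173 of them negative and 0 whole), which have the form of a regularised log transform. Such a transform shrinks the differences of genes that have few reads. Depth is unknown, as read counts were not used here, and precision rests on the spread of 3 libraries. The libraries came from pools of 3 mice.

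With limma 3.58.1 in R 4.3.3, a model of 6 population means was fitted to the 13190 genes whose values averaged 3 or more (2212 were left out), with 12 residual degrees of freedom, a variance trend, no replicate block and Benjamini-Hochberg adjustment over all tested genes. All adjusted p-values are from limma, and genes were called at thresholds from the study's methods, under 0.05 for the adjusted p and over 1 for the absolute log2 fold change. Joined populations were weighted equally. The fit was tested on simulated data before use.

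The members and the lists of related genes were chosen with earlier results of these data known. The rule for named genes took the 10 members, the genes of the short lists, the 3 highest and 3 lowest of the longer lists, and the 3 genes most like each member. Ccne2, Siglech, Foxp3, Mki67 and the Ccnd1 difference, with the Ccnd1 values against Teff and Tnaive, were named outside it, after their values were seen. Values of some single genes under the rule are not reported here. Gene models were those of GENCODE M21 on GRCm38 and promoters those of RefSeq on GRCm38.p6. Marker sums add the values on the linear scale. Alternatives to the filter, the libraries in the fit, the variance prior, the scaling, the fold threshold and the replicate block were run, and each library was left out in turn. Figures were drawn with matplotlib 3.10.9.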

Additional observations from a re-analysis of the deposited data

Results flagged for a closer look

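E2f1 was singled out because its shift from PAt and Arrested to the persistent populations differed from its shift between Teff and Tnaive in a direct test. The difference of the shifts was 1.09 (SE 0.17, adjusted p = 1.5e-05, limma), and it ran from 1.02 to 1.19 over 18 fits that each left out 1 library. Every persistent library of E2f1 was above every PAt and Arrested library, and every Teff library above every Tnaive library. Under quantile normalisation the difference was 1.38. Markers of other cells were higher in the Teff libraries, and their part was not tested.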

How the results depend on the processing

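Each of 90 values (10 genes in 9 comparisons) had the same direction and call with no filter on low values, a mean of at least 6, only the compared groups in the fit, no variance trend, a robust variance prior, or a block for the replicate number. The numbers may mark shared pools, which the labels do not state outright. Deviations from the population means had a median correlation of 0.166 (from -0.206 to 0.436) in 45 pairs of libraries with the same number and of -0.064 in 90 other pairs, and 17 of 18 libraries were on average closest to their own number. With the replicate block the E2f1 difference of the shifts was again 1.09 (adjusted p = 9.3e-07), and the block changed no other call.

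With the libraries shifted to one median, 4 values near 0 reversed, E2f4 against Teff in the persistent cells (-0.013), E2f4 (-0.073) and Rbl1 (-0.010) in PAt and Arrested against Tnaive, and Rbl1 in Teff against Tnaive (-0.076). Under quantile normalisation 4 reversed, E2f1 (-0.21) and E2f4 (-0.014) in PAt and Arrested against Tnaive, Rbl1 in Teff against Tnaive (-0.034) and the E2f8 difference of the shifts (0.30). With this scaling 2 members were called in the difference of the shifts, as were 1160 of all 13190 genes in either direction. E2f1 in Teff against Tnaive lost its call under both, at 0.94 and 0.72. The cause was not tested. With no fold threshold, 10 members were called in the persistent cells against PAt and Arrested, as were 70.9% of all genes. Against Tnaive 10 were called (74.0% of all genes) and against Teff 8 (58.7%). For PAt and Arrested it was 8 against Teff (52.7%) and 5 against Tnaive (50.7%). In Teff against Tnaive it was 6 (59.0%). Pers2 against Pers1 and Arrested against PAt had 1 each (10.6% and 5.04%), and the difference of the shifts had 6 (48.7%).

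Of 840 values from fits that left out 1 library, 804 had the same direction and call. The E2f1 range in Teff against Tnaive was 0.93 to 1.08 and that of E2f2 0.93 to 1.01. E2f1 in PAt and Arrested against Teff ranged from -1.04 to -0.86, so that 1 to 2 members were called there, 2 without Arrested replicate 1. With all libraries in the fit, 4.04% of all genes were called lower in that comparison. Values that changed sign were all under the thresholds. In PAt and Arrested against Tnaive they were E2f1 (-0.014 to 0.16) and E2f4 (-0.030 to 0.049), and in Teff against Tnaive Rbl1 (-0.026 to 0.046). In Pers2 against Pers1 they were E2f2 (-0.050 to 0.0099), E2f6 (-0.022 to 0.084), E2f7 (-0.018 to 0.13) and Rb1 (-0.019 to 0.065), and in Arrested against PAt E2f4 (-0.085 to 0.072), E2f6 (-0.075 to 0.011), Rb1 (-0.18 to 0.0060) and Rbl1 (-0.16 to 0.027). In the difference of the shifts they were E2f4 (-0.00083 to 0.078), E2f5 (-0.30 to 0.051), E2f8 (-0.15 to 0.034) and Rb1 (-0.030 to 0.072). Depth is unknown, and small differences of low genes such as E2f7 in Tnaive may be limited by the transform that the values appear to have.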
